A study of Homo sapiens with 6 samples.

Results

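Homologous recombination repairs DNA breaks by copying an intact sister chromatid, and the Fanconi anaemia pathway removes crosslinks between DNA strands and hands the resulting breaks to the same machinery. 33 genes of both pathways were taken by symbol from a table of 29810 genes, and all 33 were found. They fell into 6 role groups, which were the damage kinases with the end resection proteins, the BRCA1-BRCA2 axis, the XRCC2 and XRCC3 paralog family with RAD54, a helicase with the joint molecule nucleases, the Fanconi core complex and the ID2 complex. RPA and other pathway genes were read as a list beside them.

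The RNA came from Kasumi-1, an established human line of acute myeloid leukaemia, made of immature myeloblasts with the t(8;21) fusion of RUNX1 to RUNX1T1. In all, 3 libraries came from cells exposed to I1 at 0.125 µM for 48 h and 3 from control cells of 48 h, with replicates numbered 1 to 3 in each group. I1 is known here by this code name alone, the labels do not say what the control held, and nothing says that the libraries of a group were separate cultures, so p-values cover no more than the scatter of these libraries, some or all of which may be technical. The data are of 1 cell line at 1 dose and 1 time.

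A break is sensed by ATM and by the MRE11-RAD50-NBN complex, its ends are resected with the help of CtIP, and BRCA1, PALB2 and BRCA2 direct strand exchange proteins to the exposed strand. Paralog complexes and RAD54 proteins support the search for homology, and BLM or structure-specific nucleases separate the joined molecules. In the Fanconi pathway a multi-subunit ubiquitin ligase marks FANCD2 and FANCI, and the marked pair recruits nucleases to the crosslink. Many of these genes are transcribed mainly in cycling cells, where a sister chromatid is at hand.

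The libraries held myeloblast RNA, but the markers were not compared with those of other lines. RUNX1T1, which is fused to RUNX1 in this line, was at 16.7 to 18.4 FPKM with I1 and 12.1 to 15.3 FPKM in control. All 10 myeloblast markers were detected, with MPO at 6361 to 7076 FPKM with I1 and 7006 to 9392 FPKM in control (FPKM, fragments per kilobase of exon, scaled to the library total), and the summed marker level was 9409 to 11220 FPKM with I1 and 10240 to 14710 FPKM in control. The summed level of 4 erythroid markers was at most 0.221 FPKM with I1 and 0.0265 FPKM in control, with HBA1 and HBA2 at 0. The sum of 5 T lymphocyte markers was 3.24 to 3.70 FPKM with I1 and 2.92 to 4.27 FPKM in control, with CD8A at 2.19 to 3.73 FPKM and CD3D at 0.394 to 1.27 FPKM over the 6 libraries and TRAC at 0. Of 5 epithelial or fibroblast markers, EPCAM was at 26.7 to 31.3 FPKM with I1 and 23.2 to 27.6 FPKM in control, while KRT8 was at 0. Library totals recovered from the values were 16391000 to 16948000 reads with I1 and 17331000 to 18204000 in control, so that 1 read in a gene of 1 kb was worth 0.0549 to 0.0610 FPKM. The library of control replicate 1 stood apart. It lay at -43.8 on the first principal component, which held 52.1% of the variance, against -2.90 to 19.8 for the other libraries, and it correlated with the others at 0.948 on average, where every other library reached 0.966 to 0.973.

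None of the 31 tested members differed between I1 and control by the test. On log2(FPKM + 1), limma with Benjamini-Hochberg adjustment over 11913 genes called 0 of the 31 tested members, with adjusted p between 0.467 and 0.983, and 4 of all genes (0.0336%), all 4 with the higher level under I1. At an unadjusted p under 0.05, limma picked 1 of the 31, XRCC2, against 9.57% of all tested genes (6.8% with the higher mean under I1). With the replicate number as a block it picked 12 of the 31 (11 with the higher mean under I1), against 27.1% of all tested genes (17.1% with the higher mean under I1). The block again gave 0 calls among the 31, with a smallest limma adjusted p of 0.141, and 6 among all genes (0.0504%). After correction of each library for exon GC content, the blocked fit picked 2 of the 31 at an unadjusted limma p under 0.05. These were RAD51C and UBE2T, 0 of them with the higher mean under I1. For that fit the share of all tested genes was not taken. In bulk RNA, fewer cells that express a gene and less RNA per cell cannot be told apart.

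The fold changes nevertheless leaned one way. The median log2 fold change of I1 over control was 0.24 over the 31 members, against 0.03 over all tested genes, and 24 of the 31 (77.4%) lay above 0, against 54.5% of all. Fold changes ran from 0.56 for BRCA2 and 0.55 for BRIP1 down to -0.21 for MUS81 and -0.24 for FANCG. Control replicate 1 was the lowest of the 6 libraries for 22 of the 31 members (71.0%), against 40.1% of all tested genes, and without it the median was 0.09 for members and 0.02 for all genes, with 22 of the 31 (71.0%) above 0, against 53.5% of all.

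The members' exons were also poor in G and C. Their median exon GC content was 41.6%, against 47.9% over all tested genes. Once each library had been corrected for GC content, the median log2 fold change was 0.06 for members and -0.003 for all genes, with 23 of the 31 (74.2%) above 0, against 49.1%. With GC correction and without control replicate 1 together, the median was 0.005 for members and -0.0008 for all genes. The parts of the GC content and of control replicate 1 in the members' fold changes were not tested. Values without that library and after GC correction stand beside the groups of genes below.

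By level the genes spanned a wide range. UBE2T, the ubiquitin-conjugating enzyme of the Fanconi pathway, was the most abundant at 29.5 ± 4.10 FPKM with I1 and 29.8 ± 5.63 FPKM in control (SD, n = 3 each). FANCI followed at 17.1 ± 1.28 FPKM with I1 and 15.1 ± 3.25 FPKM in control, then RAD51AP1, NBN and RBBP8 at 12.4 to 13.5 FPKM on average over the 6 libraries. At the bottom, FANCC averaged 1.59 FPKM, and RAD50 and RAD54B stayed under 1 FPKM in every library. Neighbours in this order overlapped in their ranges over the 6 libraries at every step except UBE2T to FANCI and FANCC to RAD50. 31 of the 33 were at 1 FPKM or more in all 6 libraries, so the filter of at least 1 FPKM in at least 3 libraries left out RAD50 and RAD54B alone.

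**Figure D1:**
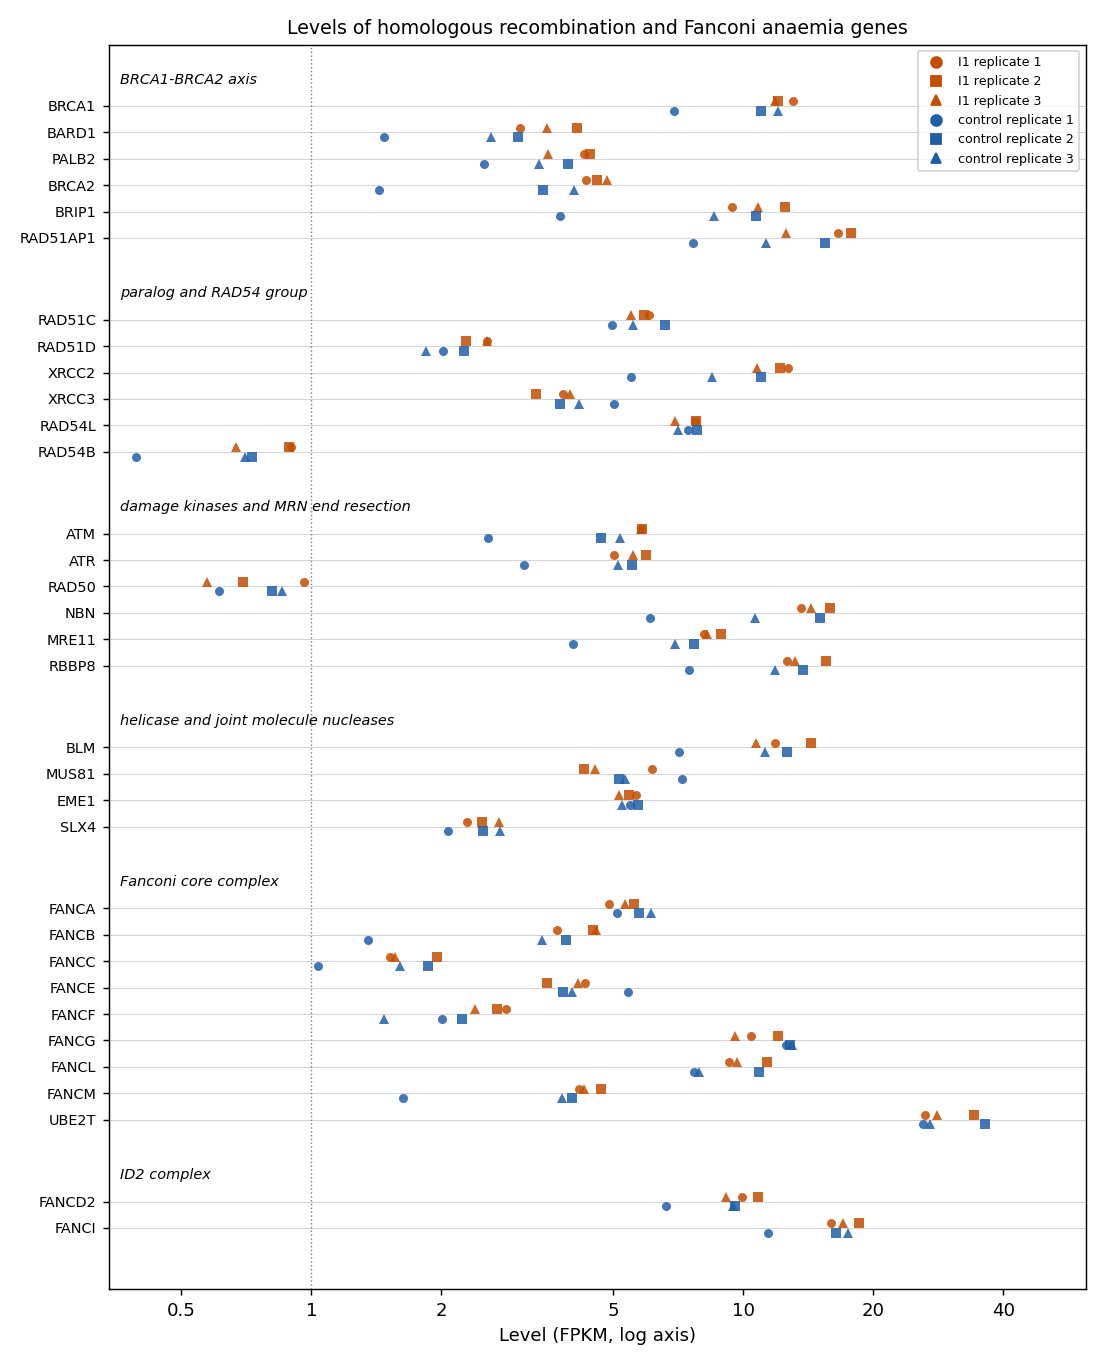
FPKM of the 33 genes in each library on a log axis, with I1 libraries drawn above control libraries and the replicate number given by the marker; the dotted line marks 1 FPKM. The circle of control replicate 1 is the lowest point of 22 of the 31 tested genes, and UBE2T stands at the top, above 26 FPKM in every library.

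Promoters are shown for the genes with the 2 largest and the 2 lowest fold changes and for XRCC2, to set their base composition beside that of the exons. They are RefSeq sequences on GRCh38.p14, from 250 bases before to 50 bases after a start, 5′ to 3′ along the gene. Capitals mark matches, on either strand, to 4 E2F-type letter strings (TTTCCCGC, TTTGGCGC, TTTGCCGC, TTTCGCGC), to CCAAT and to TTTGAA.
BRCA2 (chr13:32315258-32315557, plus strand): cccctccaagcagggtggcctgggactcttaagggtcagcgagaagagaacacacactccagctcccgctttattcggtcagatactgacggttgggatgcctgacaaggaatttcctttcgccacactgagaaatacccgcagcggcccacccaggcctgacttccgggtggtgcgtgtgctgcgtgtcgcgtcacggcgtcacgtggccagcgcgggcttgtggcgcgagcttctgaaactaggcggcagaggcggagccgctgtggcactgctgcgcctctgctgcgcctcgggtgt
BRIP1 (chr17:61863479-61863778, minus strand): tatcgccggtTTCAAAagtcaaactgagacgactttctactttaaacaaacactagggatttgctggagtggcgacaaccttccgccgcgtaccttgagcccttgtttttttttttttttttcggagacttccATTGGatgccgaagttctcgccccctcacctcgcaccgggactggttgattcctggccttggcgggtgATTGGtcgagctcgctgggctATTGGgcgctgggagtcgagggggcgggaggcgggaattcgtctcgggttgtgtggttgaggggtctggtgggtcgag
XRCC2 (chr7:152676092-152676391, minus strand): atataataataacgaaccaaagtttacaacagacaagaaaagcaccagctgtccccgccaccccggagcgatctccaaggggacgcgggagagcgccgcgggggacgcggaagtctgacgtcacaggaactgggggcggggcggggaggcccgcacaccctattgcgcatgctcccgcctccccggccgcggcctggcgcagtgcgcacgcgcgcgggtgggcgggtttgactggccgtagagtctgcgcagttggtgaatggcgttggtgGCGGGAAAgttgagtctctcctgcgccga
MUS81 (chr11:65860183-65860482, plus strand): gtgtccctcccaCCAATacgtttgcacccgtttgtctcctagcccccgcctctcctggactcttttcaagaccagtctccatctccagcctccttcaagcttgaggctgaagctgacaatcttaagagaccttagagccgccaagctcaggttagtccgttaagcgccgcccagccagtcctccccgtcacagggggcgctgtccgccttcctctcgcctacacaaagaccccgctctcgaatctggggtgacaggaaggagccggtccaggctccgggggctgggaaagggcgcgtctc
FANCG (chr9:35079893-35080192, minus strand): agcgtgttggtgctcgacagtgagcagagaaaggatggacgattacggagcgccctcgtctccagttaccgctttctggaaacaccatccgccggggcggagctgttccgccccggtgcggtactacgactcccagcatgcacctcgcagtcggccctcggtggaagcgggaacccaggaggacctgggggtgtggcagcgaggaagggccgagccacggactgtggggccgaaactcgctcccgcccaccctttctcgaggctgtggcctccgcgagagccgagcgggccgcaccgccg

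The promoters did not share the low GC content of the exons. BRCA2 had 63.3% GC in its promoter and 36.4% in its exons, BRIP1 had 55.3% and 38.2%, and XRCC2 had 65.3% and 40.3%. FANCG had 67.7% and 56.2%, and MUS81 had 61.0% and 59.2%. Over the 30 members with a promoter in the table, the median promoter GC was 64.5% (48.0% to 78.7%), against 58.7% over 35116 promoters. An E2F-type string was in 3 of the 30 (10%; XRCC2, FANCA and FANCD2), against 3.31% of all promoters. CCAAT was in 14 (46.7%), against 34.6% of all, and TTTGAA in 3 (10%; BRIP1, ATM and UBE2T), against 15.2%. BRIP1 held 3 copies of CCAAT, all read on the other strand, and BRCA2 and FANCG held none of the strings. No motif overlapped another in these 5 windows. A match is a description of letters, not of bound protein.

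Among the damage kinases and end resection genes, all 5 tested members had fold changes above 0 and none was called. Their median log2 fold change was 0.42, 0.18 without control replicate 1 and 0.10 after GC correction, at a median exon GC of 39.7%. The 6 genes summed to 46.1, 52.8 and 47.7 FPKM with I1, against 23.9, 47.6 and 40.6 FPKM in control. Control replicate 1 was well under the other 5 libraries in this sum.

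NBN, the subunit of the MRE11-RAD50-NBN complex that recruits ATM, had 13.6, 15.9 and 14.4 FPKM with I1, against 6.09, 15.1 and 10.7 FPKM in control. The groups overlapped, since control replicate 2 lay within the I1 range and control replicate 1 lay far below. The log2 fold change was 0.50 ± 0.27 (SE; limma adjusted p = 0.467) and was 0.19 without control replicate 1 and 0.13 after GC correction. RBBP8, which encodes the resection factor CtIP, had 12.6, 15.5 and 13.2 FPKM with I1, against 7.50, 13.8 and 11.8 FPKM in control. Its groups overlapped too, and its log2 fold change was 0.33 ± 0.21 (SE; limma adjusted p = 0.490), which was 0.10 both without control replicate 1 and after GC correction.

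ATM, the kinase activated by double-strand breaks, was at 5.80 to 5.82 FPKM with I1 and 2.57 to 5.17 FPKM in control. The I1 libraries were nearly equal and lay above every control library, and the log2 fold change was 0.44 ± 0.21 (SE; limma adjusted p = 0.467), which was 0.20 without control replicate 1 and 0.16 after GC correction. MRE11, the nuclease of the complex, was at 8.11 to 8.88 FPKM with I1 and 4.03 to 7.68 FPKM in control, again without overlap. For MRE11 the log2 fold change of 0.42 ± 0.20 was 0.18 without control replicate 1 and 0.09 after GC correction. ATR, the kinase activated by exposed single strands, was at 5.01 to 5.96 FPKM with I1 and 3.11 to 5.54 FPKM in control, with overlap, and its log2 fold change of 0.24 was 0.04 without control replicate 1 and -0.05 after GC correction.

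RAD50, which bridges the broken ends, was below the filter at 0.962, 0.694 and 0.573 FPKM with I1, against 0.613, 0.809 and 0.856 FPKM in control. The groups overlapped fully, and the recovered reads numbered 93 to 154 per library. In GENCODE release 29, 79.7% of its exon length is shared with AC116366.3 on the same strand, a gene not analysed here, so its level is uncertain.

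In the BRCA1-BRCA2 axis, all 6 members had fold changes above 0 and none was called. Their median log2 fold change of 0.46 was the highest of the 6 role groups. It was 0.19 without control replicate 1 and 0.12 after GC correction, at a median exon GC of 38.02%. The group summed to 50.7, 55.5 and 47.1 FPKM with I1, against 23.8, 47.5 and 41.9 FPKM in control.

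BRCA2 (ENSG00000139618, chr13:32315474-32400266 on hg38, plus strand) acts in strand exchange on single-stranded DNA. It had 4.33, 4.60 and 4.83 FPKM with I1, against 1.44, 3.43 and 4.06 FPKM in control. Every I1 library was above every control library, and control replicate 1 stood far below the other 5. The log2 fold change was 0.56 ± 0.26 (SE; 95% interval -0.04 to 1.15; limma adjusted p = 0.467), and the same-numbered pairs gave 1.13, 0.34 and 0.20. Without control replicate 1 it was 0.24, and after GC correction 0.16.

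BRCA1, the ubiquitin ligase subunit that promotes resection, had 13.0, 12.1 and 11.9 FPKM with I1, against 6.93, 11.0 and 12.0 FPKM in control. Control replicates 2 and 3 lay close to or within the I1 range, and control replicate 1 alone was low. For BRCA1 the log2 fold change was 0.31 ± 0.19 (SE; limma adjusted p = 0.486) and was 0.09 without control replicate 1 and 0.14 after GC correction. RAD51AP1, which stimulates strand pairing, had 16.5, 17.8 and 12.6 FPKM with I1, against 7.67, 15.4 and 11.3 FPKM in control. Its groups overlapped, with a log2 fold change of 0.45 ± 0.24 (SE; limma adjusted p = 0.467) that was 0.21 without control replicate 1 and 0.06 after GC correction.

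BARD1, the partner of BRCA1, was at 3.05 to 4.11 FPKM with I1 and 1.48 to 3.01 FPKM in control, without overlap, and its log2 fold change of 0.46 was 0.26 without control replicate 1 and 0.11 after GC correction. BRIP1 (ENSG00000136492, chr17:61681266-61863521, minus strand), a helicase that binds BRCA1, was at 9.43 to 12.5 FPKM with I1 and 3.76 to 10.7 FPKM in control, with overlap. Its log2 fold change of 0.55 ± 0.31 was 0.17 without control replicate 1 and 0.20 after GC correction. PALB2, the bridge between BRCA1 and BRCA2, was at 3.54 to 4.43 FPKM with I1 and 2.51 to 3.94 FPKM in control, with overlap. For PALB2 the log2 fold change of 0.26 ± 0.16 was 0.12 without control replicate 1 and 0.09 after GC correction.

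The paralog and RAD54 genes varied more among themselves. Of 5 tested members 4 had fold changes above 0 and 1 below, with a median of 0.03, which was 0.0076 without control replicate 1 and 0.09 after GC correction. None was called. XRCC2 and XRCC3, members of 1 paralog family, had fold changes of opposite sign, and their exon GC contents were 40.3% and 61.2%.

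XRCC2 (ENSG00000196584, chr7:152644779-152676165, minus strand) is part of the paralog complex that also holds RAD51C and RAD51D. It had 12.7, 12.1 and 10.8 FPKM with I1, against 5.50, 11.0 and 8.46 FPKM in control. The groups overlapped slightly, since control replicate 2 reached above I1 replicate 3. Its log2 fold change was 0.51 ± 0.22 (SE; 95% interval 0.01 to 1.01; limma unadjusted p = 0.0459, adjusted p = 0.467). It was 0.27 without control replicate 1 and 0.23 after GC correction, which was the largest GC-corrected fold change among the 31 members.

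XRCC3, which acts with RAD51C in a second paralog complex, had 3.82, 3.31 and 3.97 FPKM with I1, against 5.03, 3.77 and 4.17 FPKM in control. I1 was lower in all 3 same-numbered pairs, although the groups overlapped. Its log2 fold change was -0.18 ± 0.14 (SE; limma adjusted p = 0.548), and it was -0.08 without control replicate 1 and 0.02 after GC correction. In the annotation 76.7% of its exon length is shared with KLC1 on the opposite strand, and no source used here says whether reads were counted by strand, so its level is uncertain.

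RAD54L, a motor protein that moves along DNA, had 7.75, 7.75 and 6.97 FPKM with I1, against 7.46, 7.81 and 7.08 FPKM in control. The groups were level, with a log2 fold change of 0.01 ± 0.11 (SE; 95% interval -0.26 to 0.27; limma adjusted p = 0.978). LRRC41 on the opposite strand shares 25.1% of the exon length of RAD54L and was at 10.7 to 15.8 FPKM over the 6 libraries. RAD51D was at 2.28 to 2.55 FPKM with I1 and 1.85 to 2.26 FPKM in control, a narrow gap without overlap, with a log2 fold change of 0.19 ± 0.13. RAD51C was at 5.48 to 6.06 FPKM with I1 and 4.97 to 6.59 FPKM in control, with a log2 fold change of 0.03 ± 0.13 that became -0.24 after GC correction (limma adjusted p = 0.940).

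RAD54B, a relative of RAD54L, was below the filter at 0.896, 0.888 and 0.668 FPKM with I1, against 0.393, 0.728 and 0.702 FPKM in control. The groups overlapped, and the recovered reads numbered 38 to 80 per library. FSBP shares 59.1% of the exon length of RAD54B on the same strand and was at 0.128 FPKM or less in every library.

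The helicase and the joint molecule nucleases had a median log2 fold change of 0.01, with 2 of 4 above 0 and none called. The median was -0.03 without control replicate 1 and -0.0043 after GC correction. BLM, the helicase that helps to dissolve double Holliday junctions, had 11.8, 14.3 and 10.7 FPKM with I1, against 7.10, 12.6 and 11.2 FPKM in control. The groups overlapped, with a log2 fold change of 0.26 ± 0.21 (SE; limma adjusted p = 0.552) that was 0.03 without control replicate 1 and 0.02 after GC correction.

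MUS81 (ENSG00000172732, chr11:65857126-65867653, plus strand) is the catalytic subunit of a nuclease that cuts joined molecules. It had 6.15, 4.27 and 4.55 FPKM with I1, against 7.23, 5.15 and 5.32 FPKM in control. Replicate 1 was the highest library of both groups, the groups overlapped, and I1 was lower in all 3 same-numbered pairs by 0.19 to 0.22 on the log2 scale. For MUS81 the log2 fold change was -0.21 ± 0.17 (SE; limma adjusted p = 0.568, or 0.223 with the replicate block), and it was -0.07 without control replicate 1, -0.34 without I1 replicate 1 and -0.03 after GC correction. On the opposite strand, CFL1 and EFEMP2 share 14.1% of its exon length. EME1, its partner subunit, had a log2 fold change of -0.02 ± 0.11, and SLX4, the scaffold for several nucleases, had 0.03 ± 0.14. EME1 was at 5.15 to 5.63 FPKM with I1 and 5.25 to 5.71 FPKM in control, and SLX4 at 2.29 to 2.72 FPKM with I1 and 2.07 to 2.74 FPKM in control. LRRC59 on the opposite strand shares 16.4% of the exon length of EME1 and was at 55.7 to 71.9 FPKM over the 6 libraries.

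The 9 genes of the Fanconi core complex group, here counted with FANCM and UBE2T, split into 5 above 0 and 4 below, with a median log2 fold change of 0.11, which was 0.02 without control replicate 1 and 0.05 after GC correction. None was called. The group summed to 67.4, 80.4 and 69.7 FPKM with I1, against 62.9, 81.6 and 68.3 FPKM in control. UBE2T gave the largest share of each sum, and its highest library was replicate 2 in both groups.

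UBE2T (ENSG00000077152, chr1:202331657-202341980, minus strand) passes ubiquitin to FANCD2 and FANCI together with the ligase FANCL. It had 26.3, 34.1 and 28.1 FPKM with I1, against 26.1, 36.3 and 27.1 FPKM in control. Same-numbered libraries lay close together, and the groups overlapped fully. The log2 fold change was -0.01 ± 0.16 (SE; limma adjusted p = 0.983), although its exons held 40.4% GC, and after GC correction it was -0.28, the lowest among the 31 members (limma adjusted p = 0.941). The exon length used here gave whole reads for UBE2T in I1 replicate 1 alone, so its GC content is uncertain. FANCL was at 9.26 to 11.4 FPKM with I1 and 7.68 to 10.9 FPKM in control, with a log2 fold change of 0.19 ± 0.16 that was 0.10 without control replicate 1 and -0.16 after GC correction. On the opposite strand, VRK2 and an antisense gene share 19.7% of the exon length of FANCL.

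FANCG (ENSG00000221829, chr9:35073835-35080016, minus strand) binds FANCA in the core complex. It had 10.4, 12.0 and 9.59 FPKM with I1, against 12.6, 12.8 and 12.9 FPKM in control. The control libraries were nearly equal and all lay above the I1 libraries, and control replicate 1 was not apart for this gene. FANCG was the only member of the 31 tested with the whole I1 group below control (1 of 31, 3.23%, against 8.74% of all tested genes). For FANCG the log2 fold change was -0.24 ± 0.12 (SE; 95% interval -0.52 to 0.04; limma adjusted p = 0.467). It was -0.25 without control replicate 1 and -0.10 after GC correction.

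FANCB, which supports the ligase subunit, had 3.70, 4.48 and 4.57 FPKM with I1, against 1.35, 3.89 and 3.41 FPKM in control. Control replicate 2 lay within the I1 range and control replicate 1 far below it. The log2 fold change was 0.50 ± 0.27 (SE; limma adjusted p = 0.467) and was 0.17 without control replicate 1 and 0.09 after GC correction. FANCM, the translocase that binds stalled forks, was at 4.17 to 4.68 FPKM with I1 and 1.63 to 4.01 FPKM in control, without overlap. Its log2 fold change of 0.43 ± 0.24 was 0.13 without control replicate 1 and 0.06 after GC correction.

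FANCF, an adaptor of the core complex, was at 2.40 to 2.82 FPKM with I1 and 1.47 to 2.23 FPKM in control, without overlap. Its log2 fold change of 0.33 ± 0.15 (limma adjusted p = 0.467) was 0.36 without control replicate 1 and 0.22 after GC correction. FANCA, FANCC and FANCE overlapped between groups, with log2 fold changes of -0.09 ± 0.12, 0.11 ± 0.18 and -0.11 ± 0.15. Without control replicate 1 they were -0.15, -0.03 and 0.02, and after GC correction 0.05, 0.03 and 0.05. FANCA and ZNF276 on the opposite strand share 23.6% of the exon length of FANCA.

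The ID2 complex is the target of the ligase. FANCD2 had 9.93, 10.8 and 9.13 FPKM with I1, against 6.63, 9.55 and 9.48 FPKM in control, and FANCI had 15.9, 18.5 and 17.0 FPKM with I1, against 11.4, 16.4 and 17.5 FPKM in control. In both genes control replicate 1 was the lowest library and the other control libraries overlapped the I1 range. The log2 fold changes were 0.21 ± 0.16 for FANCD2 and 0.19 ± 0.17 for FANCI (SE; limma adjusted p = 0.529 and 0.579). They were 0.06 and 0.01 without control replicate 1, and 0.05 and -0.04 after GC correction, with a GC-corrected median of 0.0074 over both.

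Fold change followed exon GC content closely. Over the 31 members the Spearman correlation of exon GC content with log2 fold change was -0.83, and over the 11899 tested genes with a GC value it was -0.76. These are descriptions across genes, which share the same 6 libraries and are not independent replicates. It was -0.84, -0.69 and -0.67 over the members within the same-numbered pairs 1, 2 and 3, and -0.66 without control replicate 1 (-0.56 over all tested genes). The difference of control replicate 1 from the other controls followed GC in the other direction, with a Spearman correlation of 0.86 over members and 0.67 over all tested genes. Over the members, the correlation of GC content with the GC-corrected fold change was -0.21.

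**Figure D2:**
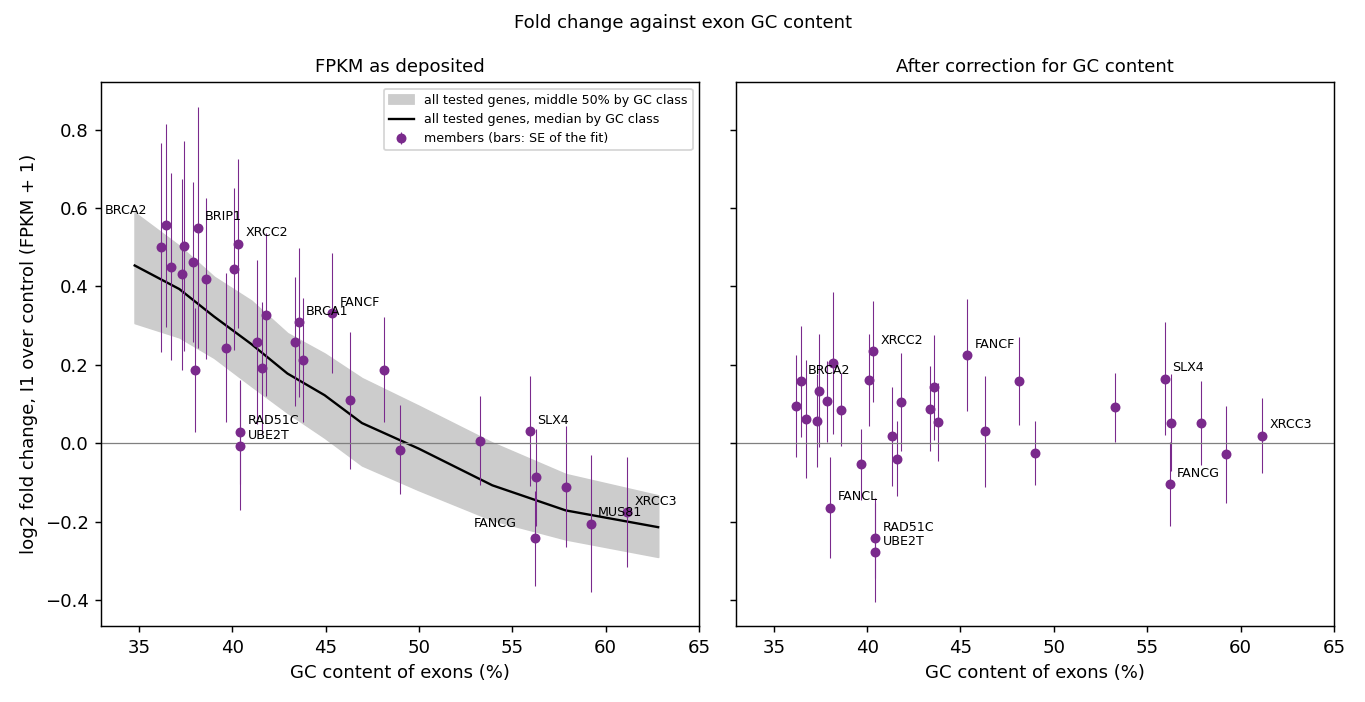
Log2 fold change of I1 over control of each tested member (points, bars: SE of the fit, n = 3 each) against the GC content of its exons in percent, before (left) and after (right) correction for GC content. The line and band give the median and the middle 50% of all tested genes by GC class; the members slope down with GC along the band before correction, with FANCF and XRCC2 among those above it and UBE2T and RAD51C below it.

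Split at the median GC of all tested genes (47.9%), a split made after the values were seen, 22 members lay under it and 9 at or over it. The 22 GC-poor members had a median log2 fold change of 0.33, and 21 of them (95.5%) lay above 0, against a median of 0.22 and 85.6% for the 5949 tested genes under the same median. The 9 GC-rich members had a median of -0.09 with 3 (33.3%) above 0, against -0.13 and 23.2% for 5950 genes. Set against the median of all tested genes in the same GC class, 23 of the 31 members lay above it, with a median difference of 0.07 and a range of -0.26 for UBE2T to 0.26 for XRCC2.

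The groups did not overlap, with I1 higher, in 7 of the 31 (22.6%), which were BARD1, BRCA2, RAD51D, ATM, MRE11, FANCF and FANCM, against 12.9% of all tested genes. Under the median GC the count was 6 of 22 (27.3%), against 23.8% of tested genes there. I1 was higher in all 3 same-numbered pairs in 16 of the 31 (51.6%), against 32.1% of all tested genes, and under the median GC in 15 of 22 (68.2%), against 56.5%. It was lower in all 3 pairs in XRCC3, MUS81, FANCA and FANCG (12.9%), against 25.8% of all tested genes.

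**Figure D3:**
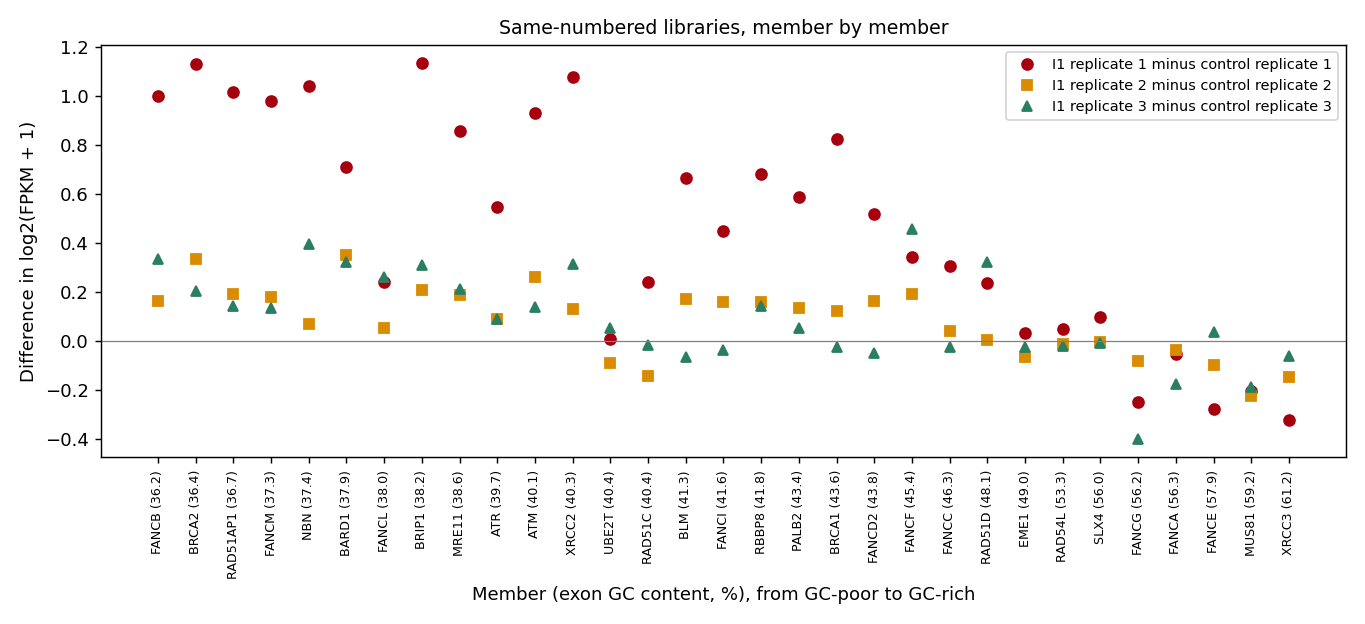
Difference in log2(FPKM + 1) between same-numbered I1 and control libraries for the 31 tested members, ordered from GC-poor to GC-rich exons (percent GC in brackets). Pair 1 holds the largest differences, up to 1.13 for BRCA2 and BRIP1, while pairs 2 and 3 run from -0.40 for FANCG to 0.46 for FANCF.

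Pair 1, with control replicate 1 in it, gave a median difference of 0.52 over the members, against 0.09 over all tested genes. Pairs 2 and 3 gave 0.12 and 0.05, against 0.02 and 0.001. In pairs 2 and 3 the largest positive differences were 0.46 for FANCF, 0.40 for NBN and 0.35 for BARD1, and the largest negative difference was -0.40 for FANCG.

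Several members share a start region with a gene on the other strand. 19 members had 20 such neighbours with starts within 1000 bases, of which 11 were tested and 0 were called (limma, smallest adjusted p 0.467). ATM and NPAT, which start 158 bases apart, had log2 fold changes of 0.44 and 0.41. FANCB and MOSPD2 had 0.50 and 0.39, and FANCM and FKBP3 had 0.43 and 0.47. After GC correction NPAT, MOSPD2 and FKBP3 were at 0.06, -0.01 and 0.25. BRCA1 and NBR1 had 0.31 and -0.04, with exon GC contents of 43.6% and 44.9%. PALB2 and DCTN5 had 0.26 and 0.02, FANCD2 and CIDECP1 had 0.21 and -0.18, and SLX4 and DNASE1 had 0.03 and -0.10. The median log2 fold change of the 11 tested neighbours was 0.02, with 7 above 0. BRCA2 faces ZAR1L, which was at 0 in all I1 libraries and at most 0.0369 FPKM in control, so only 1 side of that start region gave a measurable level. Over the 11 tested neighbours the Spearman correlation with the fold change of the member was 0.79, across genes that also share low or high exon GC.

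Other genes of the same and related pathways gave 0 calls as well, and their counts at an unadjusted p under 0.05 are to be read against the 9.57% of all tested genes. Of 34 tested genes of recombination and the Fanconi pathway outside the 33, the median log2 fold change was 0.06. It was 0.04 without control replicate 1 and 0.03 after GC correction, and 3 of the 34 had an unadjusted limma p under 0.05. RPA2, a subunit of the single-strand binding protein, had a log2 fold change of -0.02, and CENPX, which works with FANCM, had -0.25.

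The 16 tested checkpoint partners had a median of 0.25, close to that of the members, with 14 above 0 and 2 at an unadjusted limma p under 0.05. Their median was 0.05 without control replicate 1 and 0.12 after GC correction. H2AX, the histone marked at breaks, had a log2 fold change of -0.22, and TOPBP1, an activator of ATR, had 0.34. The 9 genes of non-homologous end joining had a median of 0.14 (0.04 without control replicate 1 and 0.01 after GC correction) with 1 at an unadjusted p under 0.05. XRCC6 and PRKDC, subunits of the DNA-dependent kinase, had 0.07 and 0.35. The 33 DNA replication genes had a median of 0.06 (-0.04 without control replicate 1 and 0.03 after GC correction). Of these, 0 were at an unadjusted p under 0.05, with PCNA at 0.02 and MCM7 at -0.16. The 18 p53 target genes had a median of 0.06 (0.04 without control replicate 1 and 0.03 after GC correction). Of these, 0 were at an unadjusted p under 0.05, with CCNG1 at 0.25 and BAX at -0.20.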

How the data were processed

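Polyadenylated RNA of 6 Kasumi-1 samples was sequenced after Trizol extraction and TruSeq Stranded mRNA library preparation, per the labels' protocols. The authors deposited 1 table of FPKM values for 29810 genes by Ensembl identifier. Per the submitters' processing notes, the tools were Trimmomatic, HISAT2, Cufflinks and HTSeq, and the genome build was hg38. Versions, annotation and strand settings were not given in the sources used here. By its name the file is of other cells and a different agent. Each of its 6 columns is headed by the line, group and number of 1 of these samples, though not in the exact words of the title. The columns were matched to samples on that ground, and 0 columns were left unused.

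Exon length and GC content came from GENCODE release 29 (29703 genes, 1-based coordinates). With these lengths, 95.5% to 95.7% of the genes above 0 in a library held whole reads within 0.05 reads, which gave the library totals and the read numbers. FPKM divides by such a total, so a change in abundant genes shifts all others. For BRCA1, BLM, FANCB, FANCE and FANCF no library gave whole reads, and for UBE2T and FANCC only some did. The exon lengths and GC contents of these members are therefore uncertain. Read numbers cover counting error only. Replicates of a group differed by more than counting error in every pair (chi-square over its degrees of freedom, 21.5 to 65.7).

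The test was limma 3.58.1 in R 4.3.3, on log2(FPKM + 1), trended on intensity, over the 11913 genes that reached 1 FPKM in at least 3 of 6 libraries. Calls needed a 2-sided Benjamini-Hochberg adjusted p under 0.05 over all tested genes. The added 1 makes fold changes of low genes too small. The GC correction subtracted, in each library, a lowess curve (span 0.3) of the deviation from the gene mean on exon GC. Tables were prepared with Python 3.11.15, and the fit was tested on simulated data. The titles number the samples in each group. Over all tested genes, same-numbered I1 and control samples deviated together (correlations of 0.476, 0.457 and 0.412). Differently numbered ones gave -0.348 to -0.0987. Deviations were taken from the group mean, which pushes these values below 0 once the others are above it, so they add no separate evidence. The numbers were read as pairs in the replicate block and the pair differences. The main fit left the pairing out, so its SE, intervals and p-values are unpaired.

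The members and lists were chosen with earlier results of these data known. Values per library are given, in each role group, for the 2 genes with the highest mean FPKM and those with the largest positive and negative fold change, for any gene with an unadjusted p under 0.05 and for those below the filter; from other lists up to 2 genes of the highest mean are named. Promoters are RefSeq sequences on GRCh38.p14, matched for 30 of the 33 members, using the start nearest to that of a principal transcript. Alternatives were another pseudocount, other filters, other scalings, array weights, no trend, the replicate block, the GC correction, protein-coding genes alone, a fold change threshold and leaving out each library. 1 gene is not reported here.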

Additional observations from a re-analysis of the deposited data

How the results depend on the processing

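Of the 33 members 31 were above 1 FPKM in every library. RAD50 and RAD54B were below the filter of the main fit. With no filter on low values neither was called (limma adjusted p = 0.984 and 0.705). No member was called under any of the 18 alternatives that refit the members, nor with the fold change threshold added, and the members' adjusted p lay between 0.139 and 0.999 over them (limma). Of 546 values of single members under the alternatives, 495 kept their direction and 51 did not. The paired fit, with the replicate block, called 6 genes higher in place of 4 and 0 of the 31 members. The 4 genes called higher over all tested genes became 0 with a pseudocount of 0.1, with no filter, with a mean of at least 5 FPKM, among protein-coding genes alone, with GC correction and with GC correction without control replicate 1. They became 1 with GC correction in the blocked fit, 2 with quantile normalization, and 15 higher and 1 lower with array weights; leaving out 1 library at a time gave 0 to 2. The cause was not tested. The median log2 fold change of the members was 0.005 to 0.28 over the alternatives outside the single left-out libraries, and 0.09 (without control replicate 1) to 0.37 (without control replicate 2) over those. With GC correction, with or without the block, directions turned for RAD51C (-0.24), XRCC3 (0.019), ATR (-0.054), FANCA (0.052), FANCE (0.051), FANCL (-0.16) and FANCI (-0.039). With GC correction and without control replicate 1 they turned for BRIP1 (-0.0016), RAD51C (-0.18), XRCC3 (0.028), ATR (-0.11), RBBP8 (-0.0083), BLM (-0.079), MUS81 (0.034), FANCB (-0.032), FANCC (-0.065), FANCE (0.12), FANCL (-0.067), FANCM (-0.054), FANCD2 (-0.016) and FANCI (-0.094). Median ratio scaling turned RAD51C (-0.022), RAD54L (-0.047) and SLX4 (-0.012), quantile normalization turned RAD51C (-0.057), RAD54L (-0.061), SLX4 (-0.061) and UBE2T (0.015), and array weights turned EME1 (0.013), SLX4 (-0.063) and UBE2T (0.068). Over the single left-out libraries, RAD51C ranged from -0.051 to 0.12, RAD54L from -0.026 to 0.052, EME1 from -0.042 to 0.012, SLX4 from -0.048 to 0.093, FANCC from -0.032 to 0.21, FANCE from -0.19 to 0.018 and UBE2T from -0.11 to 0.14.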

Other observations

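SNORD18, a small nucleolar RNA gene annotated inside BLM, was singled out after its values were seen. It had 6.10, 6.74 and 6.02 FPKM with I1, against 0, 0.824 and 0 FPKM in control, and was among the 4 genes called (log2 fold change 2.58, limma adjusted p = 0.0353), while BLM around it was not called (log2 fold change 0.26). SNORD18 reached 1 FPKM in the I1 libraries alone, so it passed the filter only through the group where it was high. Its adjusted p is therefore no support for a difference. With no filter on low values no gene was called.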
